A study of Homo sapiens with 23 samples.

Results

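The comparison described here is the earliest one of a time course of TRPS1 depletion: nascent transcription 0.5 h after the degraders were added, set against the vehicle control. It uses the 4 libraries titled 0.5 hour and the 4 libraries titled 0 hour, 8 of the 23 libraries of the series. All were PRO-seq libraries (precision run-on sequencing, which maps RNA polymerases that are transcribing at the moment of harvest) from dTAG-TRPS1 Clone 28 of T47D, a luminal, estrogen receptor-positive breast cancer cell line. The treated cells received dTAG-13 and dTAG-V-1 at 50 nM each (dTAG) for 0.5 h, and the control cells received DMSO, which per the labels lasted 24 h, so that the length of vehicle exposure differs between the groups and cannot be told apart from the degraders. Both groups carry the tag on TRPS1, and per the study's methods only tagged protein is made and some copies of the gene are disrupted. The line is 1 clone, per the study's methods derived from cells that had already passed a round of drug selection, and T47D cells without the tag were not part of this comparison, so an effect of the ligands themselves cannot be told apart from one of TRPS1 loss. The 4 replicates were harvested at different times of the same day. The fit takes the replicate number as a block, which takes out differences shared by same-numbered libraries but not those of a single library. The p-values measure the spread that remains, estimated over all 23 libraries.

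TRPS1 is a zinc finger protein that binds the GATA motif, the DNA element read by the GATA family of transcription factors, and is known mainly as a repressor that recruits corepressor complexes. In luminal breast epithelium the same DNA element is used by GATA3, which acts with FOXA1 and the estrogen receptor to maintain the identity of these cells. Because PRO-seq reads polymerases and not the mRNA pool, a change within 0.5 h can be seen before mRNA levels have had time to follow.

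Total counts of the 8 libraries lay between 7001408 and 17126461, and mitochondrial genes took between 2.18% and 4.24% of them. The replicate 1 library at 0.5 h had both the lowest total and the highest mitochondrial share. It also stood apart from its group: chi-square values per degree of freedom against the other 0.5 h libraries were between 19.3 and 33.3, whereas those 3 libraries differed from each other by 1.55 to 4.96. Counts are therefore also given without replicate 1. The 8 luminal epithelial markers (among them GATA3, FOXA1, KRT8 and EPCAM) all passed the filter on low counts and summed to between 4460 and 4730 CPM (counts scaled to library size) in DMSO and between 4220 and 4350 CPM at 0.5 h, so the groups did not overlap. In such bulk libraries of a single clone, a fall in every cell and a larger fall in some of the cells cannot be told apart. Of the markers of basal cells, fibroblasts, leukocytes and endothelium, 12 of 30 passed, 18 averaged under 1 CPM, and each of these lists summed to at most 63.3 CPM in every library.

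The first 0.5 h of dTAG was marked by many small changes in both directions. Of 26057 genes tested, 645 (2.48%) were called by edgeR's quasi-likelihood test with the replicate number as a block (adjusted p, or FDR, under 0.1), 291 higher (1.12%) and 354 lower (1.36%). The median log2 fold change was 0.22 among the genes called higher and -0.20 among those called lower, and 425 of the 645 changed by less than 0.25. The larger changes were mostly rises: 28 of the 37 called genes that moved by 0.5 or more on the log2 scale were higher and 9 were lower. Most of these 37 did not have both at least 100 counts on average and 1 direction in all 4 pairs. Those that did were ART4 (0.83), ZNF350-AS1 (0.61), P2RY10 (0.56), ENSG00000288073 (0.53) and VCAN (0.52), all rises. The largest fall under that rule was -0.44, at RBBP8NL. GAB3 and CALY, taken up below, are also among the 37. Of the called genes, 280 of 291 and 348 of 354 kept their direction in all 4 same-numbered pairs of libraries. Over all 26057 genes tested, 2775 rose and 2575 fell in all 4 pairs. The 4 treated libraries lay entirely above the 4 DMSO libraries for 175 of the genes called higher, and entirely below them for 222 of those called lower. Over all genes tested the groups did not overlap for 4.97%, with 2.58% in the upward and 2.39% in the downward direction. Genes were called on these same libraries, so agreement of pairs and separation of groups among them are partly fixed by the calling.

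The number of calls depended on the block, on the later libraries that enter the estimate of the spread and on which replicate was left out. A fit of the 8 libraries alone called 194 genes with the block and 1 without it. In that fit without the block, all 43 genes named by size, p, class or length lost their call. With all 23 libraries but without the block 124 genes were called, 61 higher and 63 lower, and all 124 were among the 645 with the same direction. Leaving out replicate 1 gave 727 calls, of which 463 were shared, while leaving out replicate 2, 3 or 4 gave 249, 109 and 159.

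**Figure D1:**
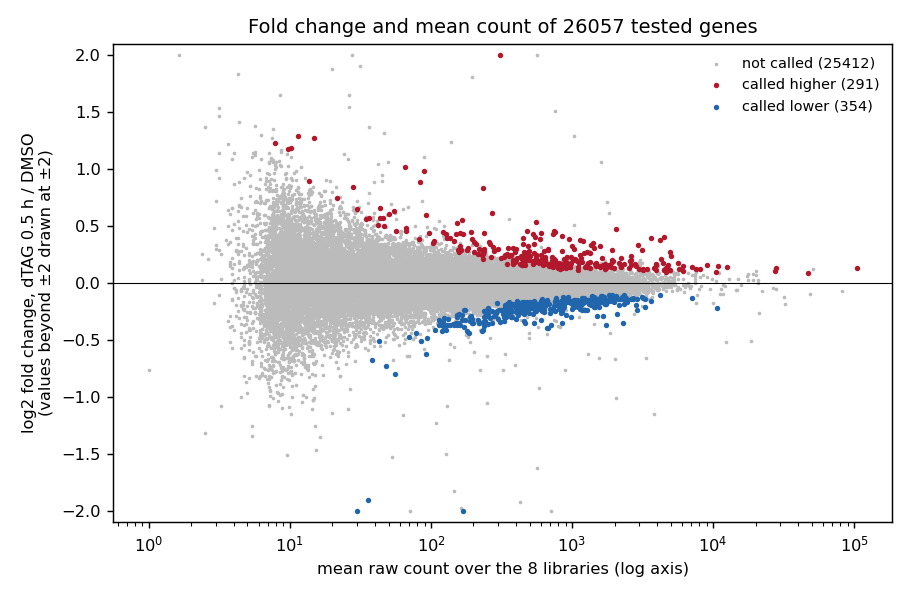
Each point is 1 of the 26057 genes tested, with its mean raw count over the 8 libraries on a logarithmic horizontal axis and its log2 fold change at 0.5 h over DMSO on the vertical axis (values beyond 2 in size are drawn at the edge). Red points are the 291 genes called higher and blue points the 354 called lower, and most calls lie within 0.25 of 0 among genes with high counts.

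TRPS1 itself was checked first. The ligands act on the protein, so its nascent transcription does not show depletion. It rose in all 4 pairs by 0.13 ± 0.03 (SE) on the log2 scale, at an edgeR FDR of 0.0558, but the 2 groups overlapped, and the call was lost without the block and when replicate 2, 3 or 4 was left out.

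Among genes with at least 100 counts on average and the same direction in every pair, the largest rises belonged to genes with low or moderate transcription. ART4, which encodes the ADP-ribosyltransferase that carries the Dombrock blood group antigens, had the largest rise, by 0.83 ± 0.07 (SE), to a mean of 26.9 CPM. VCAN, which encodes the extracellular matrix proteoglycan versican, was at 12.5, 11.1, 12.4 and 9.57 CPM in DMSO replicates 1 to 4 and at 14.8, 15.5, 17.5 and 17.1 CPM at 0.5 h. All 4 treated libraries of VCAN were above all 4 controls, and the log2 fold change was 0.52 ± 0.09 (SE) at an edgeR FDR of 0.00209. P2RY10, a G protein-coupled receptor for lysophospholipids, went from 13.2, 11.2, 12.2 and 12 CPM to 15, 14.9, 20.7 and 19.6 CPM. The groups did not overlap for P2RY10 either, but replicates 1 and 2 were much closer to their controls than replicates 3 and 4, and the call (0.56 ± 0.13, FDR 0.0288) was lost without replicate 3 or without replicate 4. FSIP1, which encodes a protein of the sperm fibrous sheath, was higher at a higher level: 162, 150, 167 and 145 CPM in DMSO and 206, 222, 223 and 216 CPM at 0.5 h. Its log2 fold change of 0.47 ± 0.04 (SE) passed at an edgeR FDR of 2.3e-06. RBBP8, whose product CtIP starts the resection of broken DNA ends, showed a similarly tight separation, from 349, 307, 357 and 319 CPM to 427, 413, 453 and 444 CPM (log2 fold change 0.38 ± 0.04, edgeR FDR 2.3e-06).

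The remaining large rises included 2 genes with signaling or adhesion roles. DGKB, a diacylglycerol kinase, rose by 0.44 ± 0.07 (SE) with no overlap of the groups. FLRT3, a leucine-rich repeat membrane protein, rose by 0.45 ± 0.10, but its groups overlapped, with 7.54 to 10.9 CPM in DMSO and 10.6 to 14.1 CPM at 0.5 h, and its call was lost without replicate 2, 3 or 4 and without the block. The glutathione transferase gene GSTM5 and the long noncoding RNA gene ENSG00000241720 both rose by 0.45 ± 0.04, but they lie on the same strand of chromosome 1 and share reads, so they are 1 signal. ARMCX4 owes much of its value of 0.45 ± 0.12 to the replicate 1 library, at 31.7 CPM against 16.6 to 20 CPM in the other treated libraries, and its call was lost whenever any replicate was left out.

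The falls named by p or by size differed in level. RBBP8NL and SFXN3, at lower levels than CA12, fell by 0.44 and 0.42 on the log2 scale. CA12, a membrane-bound carbonic anhydrase whose gene is induced by estrogen in breast cancer cells, was at 257, 259, 236 and 230 CPM in DMSO and at 197, 205, 182 and 185 CPM at 0.5 h. Every treated library of CA12 was below every control, and the log2 fold change was -0.35 ± 0.03 (SE) at an edgeR FDR of 1.9e-06, which held whichever replicate was left out. PCDH1, a protocadherin that acts in epithelial cell adhesion, went from 51.1, 55.3, 48.3 and 46.2 CPM to 39.1, 40.6, 37.2 and 40 CPM (-0.35 ± 0.04, edgeR FDR 0.000125). IGSF3, a membrane protein of the immunoglobulin superfamily, was at 65, 81.6, 72.0 and 70.3 CPM in DMSO and at 59.3, 54.9, 52.5 and 54.2 CPM at 0.5 h. EPN3, an epsin-family endocytic adaptor, fell by 0.39 on the log2 scale, from between 66.8 and 77.5 CPM to between 48.6 and 58.4 CPM. Both genes were called whichever replicate was left out, and EPN3 overlaps SPATA20 on the same strand and can share its reads. The falls of TRIM47 (a RING-type ubiquitin ligase), GAL3ST2 (a galactose sulfotransferase) and PRR15L had no overlap between groups but lower counts, and each lost its call without at least 2 of the replicates.

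The values of these genes at the later times, which share the same DMSO libraries, were not all alike. ART4 had log2 fold changes of 0.89, 0.87, 0.93 and 0.91 at 1, 2, 4 and 24 h, close to its 0.83 at 0.5 h. IGSF3, in contrast, had -0.36, -0.26, -0.21 and -0.03 at the same times after -0.40 at 0.5 h. VCAN stood at 0.64 and FSIP1 at 0.21 at 24 h. GATA3 was at -0.05 and SPDEF at -0.08 at 24 h.

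**Figure D2:**
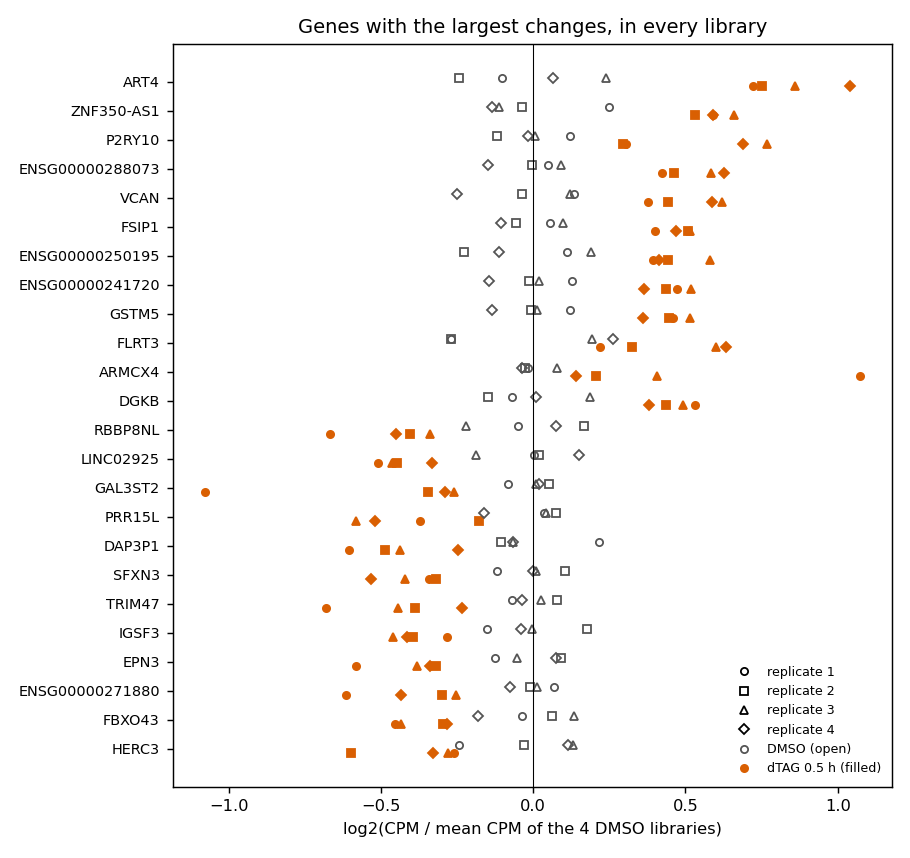
The 12 largest rises and 12 largest falls by the rule for named genes are shown in every library, as the log2 ratio of the library's CPM to the mean CPM of the 4 DMSO libraries. Open symbols are DMSO, filled symbols are dTAG at 0.5 h, and the shape gives the replicate number, so that the separate positions of replicate 1 for ARMCX4 and GAL3ST2 can be seen against the tight groups of FSIP1 and EPN3.

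The promoters of 5 genes are shown because the factor that was removed binds GATA motifs. They are a selection from the genes that met the rule on starts given next. Each line holds the 250 bases before the transcription start from RefSeq on GRCh38.p14, read 5′ to 3′ along the strand of the gene, for genes whose RefSeq start lies within 100 bases of the start in the annotation used here. Capitals mark a GATA word or an estrogen receptor half-site, searched on both strands. The GATA words were AGATAA, its variant with a final G, which is AGATAG, the form with an initial T, which is TGATAA, and that form ending in G, which is TGATAG. The half-site was AGGTCA. ART4 lies at chr12:14843527-14843776 (minus strand), P2RY10 at chrX:78945141-78945390 (plus), FSIP1 at chr15:39782842-39783091 (minus), CA12 at chr15:63381847-63382096 (minus) and SPDEF, an ETS factor taken up below, at chr6:34556330-34556579 (minus). The first 3 genes were called higher and the last 2 lower.
ART4: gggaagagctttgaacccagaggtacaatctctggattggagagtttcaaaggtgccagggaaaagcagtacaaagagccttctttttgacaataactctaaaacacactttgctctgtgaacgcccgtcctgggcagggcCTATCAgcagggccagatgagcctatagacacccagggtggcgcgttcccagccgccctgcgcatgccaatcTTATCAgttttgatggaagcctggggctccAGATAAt
P2RY10: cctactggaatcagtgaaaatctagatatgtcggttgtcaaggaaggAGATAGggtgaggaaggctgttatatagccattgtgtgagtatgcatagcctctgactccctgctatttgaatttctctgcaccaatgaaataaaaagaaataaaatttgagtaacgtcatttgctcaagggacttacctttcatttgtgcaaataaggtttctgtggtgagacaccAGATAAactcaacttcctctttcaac
FSIP1: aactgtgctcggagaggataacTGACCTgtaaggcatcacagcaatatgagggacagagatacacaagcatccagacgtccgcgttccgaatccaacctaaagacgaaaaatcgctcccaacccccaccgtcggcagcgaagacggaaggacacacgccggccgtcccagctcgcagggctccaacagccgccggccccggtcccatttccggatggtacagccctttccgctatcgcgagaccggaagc
CA12: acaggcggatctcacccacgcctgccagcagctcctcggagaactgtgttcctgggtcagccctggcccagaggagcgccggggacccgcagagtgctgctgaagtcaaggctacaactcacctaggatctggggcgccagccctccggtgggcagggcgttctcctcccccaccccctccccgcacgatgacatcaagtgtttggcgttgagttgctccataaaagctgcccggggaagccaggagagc
SPDEF: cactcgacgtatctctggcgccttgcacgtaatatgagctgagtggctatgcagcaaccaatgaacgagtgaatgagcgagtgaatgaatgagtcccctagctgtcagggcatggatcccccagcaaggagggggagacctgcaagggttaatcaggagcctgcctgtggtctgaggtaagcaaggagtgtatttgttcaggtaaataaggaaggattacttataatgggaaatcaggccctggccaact
ART4 holds 3 GATA words in this stretch and P2RY10 holds 2, FSIP1 holds 1 half-site, and neither word was found in CA12 or SPDEF. Other genes that met the rule on starts are not shown. Of these, FLRT3 and ARMCX4, called higher, held 0 GATA words and FHL2, also called higher, held 1. PGR, which was not called, held 2. The shares that follow cover all genes with a RefSeq promoter on the same strand, with the window extended to 50 bases after the start. The rule on starts was not applied to them, so some windows lie far from the annotated start (DGKB 71121 bases, FRMD4A 453592). A GATA word was present in 44 of 198 genes called higher (22.2%), 25 of 258 called lower (9.69%) and 2469 of 14358 tested (17.2%). The share among all 35116 RefSeq promoter windows was 25%. The windows also differed in base composition, with a median GC content of 60.8% for genes called higher, 68.7% for genes called lower and 64% for all tested, and the part of composition in these shares was not tested. A half-site was present in 12.1% of genes called higher, 8.53% of those called lower and 10.4% of all tested. A match of 6 letters is a description of the window and not a binding site.

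Transcription factors of the luminal lineage were among the genes that fell. Of 30 listed and tested, 7 were called lower and 2 higher, against 1.36% and 1.12% of all genes. In this list 23 of 30 had a negative log2 fold change, with a list median of -0.07 against 0.01 over all genes. Its members had a median of 1300 counts, against 134 over all genes and 632 among called genes. Of lists taken up below, estrogen-induced genes (563) and cytosolic ribosomal protein genes (839) also had higher medians, and HOX genes (84.8) did not. The part of counts in the shares called was not tested. GATA3, the GATA factor that specifies luminal cells, was at 1113, 1078, 1092 and 1077 CPM in DMSO and at 912, 966, 925 and 946 CPM at 0.5 h. The groups of GATA3 did not overlap, and its log2 fold change of -0.22 ± 0.02 (SE) passed at an edgeR FDR of 2.5e-05. SPDEF, an ETS factor of secretory luminal cells, went from 98.2, 96.4, 84.3 and 87 CPM to 76.1, 70.3, 70.2 and 70.2 CPM (-0.35 ± 0.05, edgeR FDR 0.000206). MYB, which is driven by the estrogen receptor in these cells, went from 54.8, 51, 64.1 and 55.9 CPM to 44.3, 44.9, 45.5 and 43.7 CPM. TFAP2A (AP-2 alpha) fell by 0.19 on the log2 scale, RARA (retinoic acid receptor alpha) fell by 0.16, LMX1B fell by 0.18 and the grainyhead factor GRHL1 fell by 0.23, all with no overlap between the groups. GATA3, SPDEF, MYB and TFAP2A were called whichever replicate was left out, and GRHL1 was lost whichever was left out.

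The 2 factors that rose were EHF and RUNX1. EHF, an epithelial ETS factor, was at 430, 397, 424 and 393 CPM in DMSO and at 489, 489, 498 and 511 CPM at 0.5 h, a log2 fold change of 0.27 ± 0.03 (SE) at an edgeR FDR of 3.0e-05. EHF and SPDEF, both ETS factors of epithelium, moved in opposite directions. RUNX1 rose by 0.16 ± 0.03, with overlapping groups. FOXA1, the pioneer factor of these cells, and PGR, the progesterone receptor gene, did not pass the test. FOXA1 had a log2 fold change of -0.07 ± 0.04 at an edgeR FDR of 0.435, and PGR one of -0.05 ± 0.03 at 0.601.

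Of 11 keratin genes tested, KRT15 and KRT19, which luminal cells express, were called lower, beside 1.36% of all genes. KRT15 was at 119, 97.3, 96.1 and 102 CPM in DMSO and at 81.9, 81.6, 81.3 and 89.8 CPM at 0.5 h (-0.30 ± 0.06, edgeR FDR 0.0063). KRT19 was at -0.14 with overlapping groups, and its call was lost without replicate 2 or 3, without the block and with total counts. All 8 of the luminal markers had a negative log2 fold change, with a median of -0.14, but only GATA3 and KRT19 among them were called.

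Among HOX genes, the homeodomain factors that set position along the body axis, most calls lay in the HOXC cluster. Of 21 HOX genes tested, 6 were called lower, beside 1.36% of all genes, with a list median of -0.11. The count became 5, 3, 1 and 2 without replicates 1, 2, 3 and 4, and 0 without the block. Of these 6, HOXC4, HOXC6, HOXC8, HOXC9 and HOXC13, lie within 117 kb of chromosome 12 (53938831 to 54056030, hg38), while HOXB3 lies on chromosome 17. HOXC6 was at 185, 175, 166 and 177 CPM in DMSO and at 164, 136, 136 and 142 CPM at 0.5 h, a log2 fold change of -0.29 ± 0.05 (SE) at an edgeR FDR of 0.00248. HOXC8, at a much lower level, went from 9.54, 10.8, 8.80 and 9.27 CPM to 5.93, 7.28, 6.69 and 6.72 CPM. Neither gene had overlapping groups. Of all 18 genes tested in this stretch, 7 were called lower and 2 had a positive value, among them HOXC12 at 0.19 ± 0.22, and HOTAIR, the long noncoding RNA of the cluster, was at -0.10 ± 0.05 without a call. This stretch was bounded by its outermost called genes, which partly fixes the share called. Reads are shared here, since HOXC4, HOXC6, HOXC8 and HOXC9 overlap one another or a longer annotated gene on the same strand, and only 1 of the 18 overlaps no other gene. The count of 7 became 7 without replicate 1 and 5, 2 and 3 without replicates 2, 3 and 4, 0 without the block and 4 in the blocked fit of the 8 libraries. The 13 calls of the chromosome 19 stretch became 9 without the block.

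The opposite pattern was found on chromosome 19, in a stretch of 484 kb from 51745172 to 52229518 that holds formyl peptide receptor genes and a cluster of KRAB zinc finger genes. Of 23 genes tested there, 13 were called higher and 20 had a positive value, beside 1.12% called higher of all genes. The stretch was bounded by its outermost called genes, which partly fixes this share. FPR3, a chemoattractant receptor of the formyl peptide family, was at 4.98, 5.62, 4.65 and 6.15 CPM in DMSO and at 8.42, 10.7, 10.1 and 9.86 CPM at 0.5 h, a log2 fold change of 0.89 ± 0.12 (SE) at an edgeR FDR of 0.000247. Its neighbor FPR2 was not called, at -0.30 ± 0.42, on 30.2 counts on average. ZNF350, a KRAB zinc finger repressor, was at 56.8, 55.4, 60 and 55.4 CPM in DMSO and at 74.8, 75.7, 80.3 and 76.0 CPM at 0.5 h, with the smallest p of the stretch (0.43 ± 0.04, edgeR FDR 5.3e-06). ZNF613 was at 84.4, 80.7, 101 and 90.4 CPM in DMSO and at 105, 109, 128 and 122 CPM at 0.5 h. ZNF432, ZNF616, ZNF841, ZNF649, ZNF614 and ZNF577 rose by between 0.27 and 0.39 on the log2 scale. ZNF615 and ZNF836, which lie among them, were at 0.18 ± 0.06 and 0.17 ± 0.07 and did not pass. PPP2R1A, the scaffold subunit of protein phosphatase 2A at the far end, rose by 0.13 ± 0.04, at an edgeR FDR of 0.0921.

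These genes lie on both strands, with ZNF613, FPR3 and PPP2R1A on the plus strand and ZNF350, ZNF616 and ZNF432 on the minus strand. ZNF577 overlaps ZNF649, ZNF432 overlaps ZNF841, and ZNF616 overlaps the called noncoding gene ENSG00000267827, each on the same strand, so those pairs share reads. Only 4 of the 23 overlap no other gene, and 2 of these were called when only such genes were tested. The count of 13 was 12 without replicate 1 and 10, 10 and 8 without replicates 2, 3 and 4. In the fit of the 8 libraries it was 11 with the block and 1 without it. Over all 489 ZNF genes tested, 13 were called higher and 4 lower, with a median of 0.01, and 8 of the 13 lie in this stretch. The zinc finger genes elsewhere in the genome thus contributed 5 rises, at ZNF26, ZNF385B, ZNF532, ZNF783 and ZNF675.

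**Figure D3:**
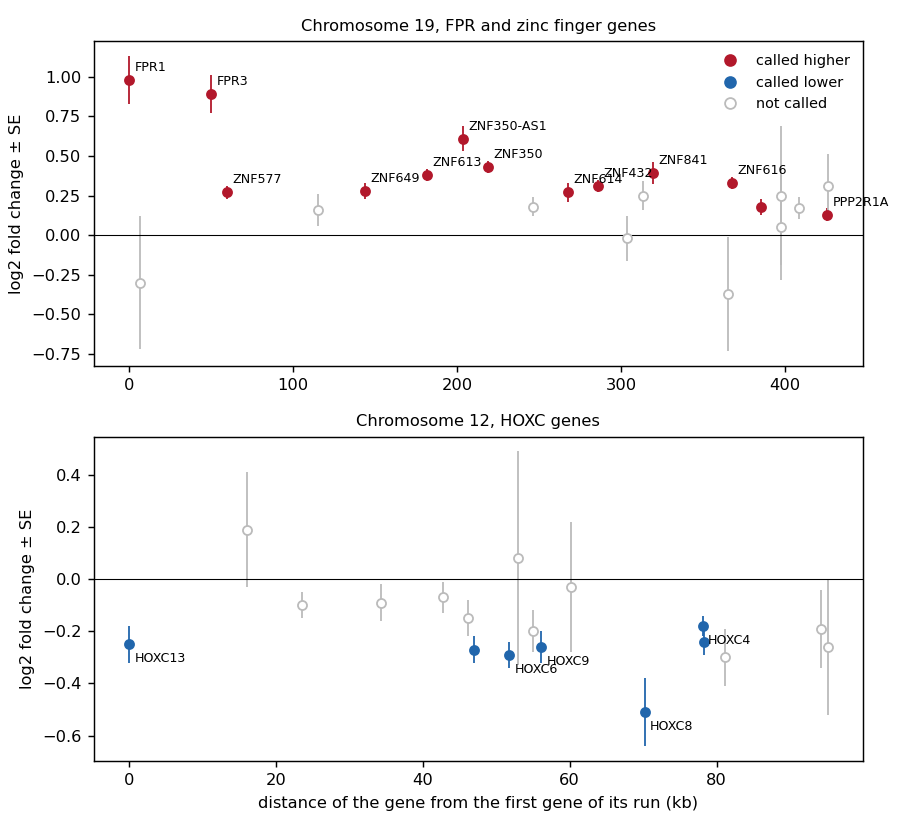
Log2 fold change at 0.5 h over DMSO with its standard error for every gene tested in the chromosome 19 stretch (top) and in the HOXC stretch (bottom), placed by the distance of the gene's first base from that of the leftmost gene, in kb. Filled red points were called higher, filled blue points called lower and open points not called, and the 13 calls of the upper panel are all above 0 while the 7 of the lower panel are all below it.

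Some called genes lay near another gene called in the same direction. The counts that follow include the chromosome 19 and HOXC stretches, which hold many of these pairs, and were not repeated without them. Within 100 kb of a gene called higher, not counting overlapping genes, 7.58% of tested neighbors were called higher and 0.758% lower. Within 100 kb of a gene called lower, 4.18% were called lower and 0.47% higher, and around genes that were not called the shares were 0.857% higher and 1.44% lower. In all, 114 called genes had such a neighbor, 97 of them one in the same direction and 18 one in the opposite direction. Among runs of 3 or more called genes linked at 100 kb, 13 of 14 went in 1 direction, but these runs include overlapping genes, which can share reads. One holds ART4 and MGP, which encodes matrix Gla protein, within 60 kb of chromosome 12. MGP was at 128, 97.7, 98.3 and 97.7 CPM in DMSO and at 168, 114, 113 and 116 CPM at 0.5 h, so that replicate 1 was high in both groups and the pairs, not the group ranges, were separated (0.26 ± 0.05, edgeR FDR 0.00992).

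Gene classes differed in the balance of rises and falls. Protein-coding genes were called more often lower than higher, with 322 lower (2.05%) and 203 higher (1.29%), or 3.34% of 15720 in all. Long noncoding RNA genes showed the reverse balance, with 79 higher (1.12%) and 28 lower (0.397%) of 7052. Over all genes tested 1.12% were called higher and 1.36% lower, so this class differed from them in falls and not in rises. Its median was 40.9 counts, against 293 for protein-coding genes. Intergenic RNA genes named LINC gave 18 higher (1.85%) and 4 lower (0.412%) of 972. Noncoding genes known by an Ensembl identifier alone gave 43 higher (1.05%) and 14 lower (0.343%) of 4078. Where a gene overlapped no other, the noncoding split was 9 higher and 7 lower of 1552, while that of protein-coding genes was 61 and 80 of 4345. Pseudogenes gave 6 higher (0.295%) and 1 lower (0.0492%) of 2032. Small or structural RNA genes gave 2 higher (0.221%) and 1 lower (0.111%) of 904.

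Among long noncoding RNA genes with at least 100 counts, ZNF350-AS1 of the chromosome 19 stretch rose most, by 0.61 ± 0.08. The next, ENSG00000288073 on chromosome 4 (37454698 to 37476401, minus strand), which overlaps no gene on its strand, was at 42.7, 41.2, 44 and 37.2 CPM in DMSO and at 55.4, 56.9, 61.9 and 63.7 CPM at 0.5 h, a log2 fold change of 0.53 ± 0.07 (SE). LINC02925 fell by 0.42 on the log2 scale, from between 22 and 27.8 CPM to between 17.6 and 19.9 CPM. ENSG00000288073 and LINC02925 were called whichever replicate was left out.

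Calls were counted by gene length among protein-coding genes. Genes under 5 kb gave 1.1% higher and 0.424% lower of 1179, and genes of 20 to 50 kb gave 1.38% and 1.72% of 4066. Falls were most frequent from 50 to 100 kb, with 3.93% lower and 1.21% higher of 2978, and from 100 to 200 kb, with 3.16% and 1.16% of 2152. Above 200 kb there were 2.27% higher and 0.801% lower of 1498. These counts moved with the library left out. The 117 falls of 50 to 100 kb became 101, 47, 15 and 30 without replicates 1, 2, 3 and 4, and 20 without the block. From 100 to 200 kb the 68 falls became 64, 27, 2 and 14, and 5 without the block, and without replicate 3 the 5 rises there outnumbered the 2 falls. The 34 rises above 200 kb became 34, 12, 8 and 7, and 7 without the block. Median log2 fold changes moved little, from 0.02 under 5 kb to -0.02 at 100 to 200 kb. Longer genes had more counts, with a median of 108 under 5 kb and 552 at 100 to 200 kb, so within the upper of 3 equal groups by CPM the shares were compared again: they were 6.16% lower and 1.63% higher at 50 to 100 kb, and 1.21% lower and 4.18% higher above 200 kb. Among genes overlapping no other, 50 to 100 kb gave 37 lower and 6 higher of 680, whereas above 200 kb there were 1 lower and 0 higher of 110.

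**Figure D4:**
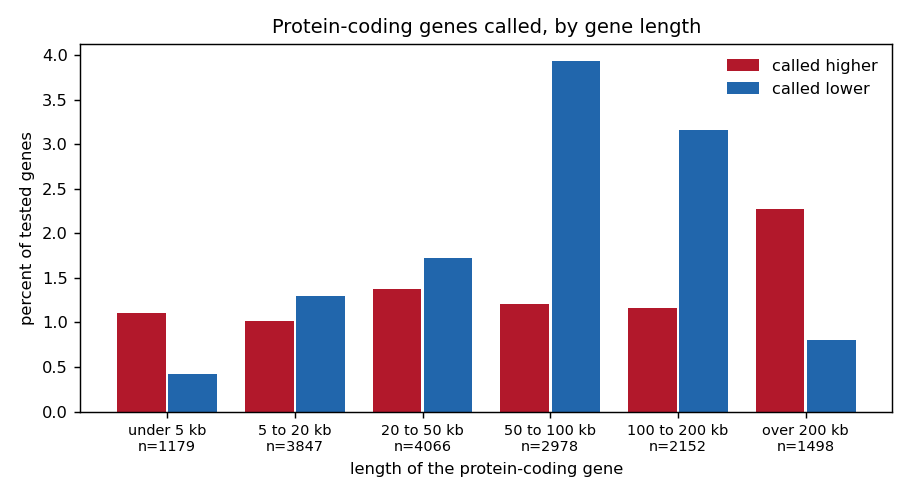
Bars give the percent of tested protein-coding genes called higher (red) or lower (blue) at 0.5 h in 6 classes of annotated gene length, with the number tested under each class. The blue bars peak at 3.93% for 50 to 100 kb, and the red bar exceeds the blue one only under 5 kb and above 200 kb.

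Of the 3 shortest and 3 longest protein-coding genes called higher, H2AC20, RPL41, RUNX1 and RAD51B had overlapping groups, and HES1 and DSCAM did not. HES1, the Notch-responsive repressor gene, was at 54.5, 56.5, 57.4 and 54.3 CPM in DMSO and at 63.6, 74.6, 69.4 and 65.9 CPM at 0.5 h (0.30 ± 0.05, edgeR FDR 0.00538). DSCAM, a neuronal adhesion gene of 836 kb, was at 236, 236, 252 and 243 CPM in DMSO and at 259, 259, 284 and 280 CPM at 0.5 h. In both genes the treated libraries were all above the controls, and the DSCAM call was lost without replicate 3 or without replicate 4. FRMD4A, a long gene for a scaffold of epithelial polarity, fell by 0.21 on the log2 scale, from between 144 and 152 CPM to at most 131 CPM, whichever replicate was left out. A polymerase that starts at the promoter covers only part of so long a gene in 0.5 h, and the counts span the whole annotated gene.

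Estrogen-induced genes moved both ways. Of 59 tested, 7 were called higher (TPD52L1, STC2, HSPB8, MED13L, PRLR, MYC and FHL2) and 6 lower (CA12, CXCL12, MYB, MYBL1, RARA and FKBP4), with a list median of -0.02. Over all genes, 1.12% were called higher and 1.36% lower. Lists share members: MYB and RARA are also counted among the luminal factors, and HSPB8 and FKBP4 among the heat shock chaperones. The falls were larger: CXCL12, a chemokine, was at 131, 132, 124 and 126 CPM in DMSO and at 119, 108, 103 and 106 CPM at 0.5 h, with no overlap and a log2 fold change of -0.24 ± 0.03 (SE). The largest rise of the list was TPD52L1, at 0.20 ± 0.04, and PRLR, the prolactin receptor gene, rose by 0.09 ± 0.02 at a level of at least 4068 CPM. Leaving out replicate 2, 3 or 4 gave 1, 1 and 0 rises and 6, 4 and 4 falls, while leaving out replicate 1 gave 8 and 7. GREB1, a well-known estrogen target, was at 0.09 ± 0.03 at an edgeR FDR of 0.127.

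Of 79 cytosolic ribosomal protein genes, 9 were called higher, beside 1.12% of all genes. In this list 73 had a positive value and the median was 0.10, against 13532 of 26057 and 0.01 over all genes. RPS23, which had the smallest p of them, was at 92.7, 90.1, 88.1 and 92.3 CPM in DMSO and at 104, 102, 107 and 105 CPM at 0.5 h. The groups of RPS23 did not overlap (0.21 ± 0.04, edgeR FDR 0.00281). By pair, however, the ribosomal protein median was 0.26 for replicate 1 and 0.06, 0.10 and 0.07 for replicates 2, 3 and 4. Replicate 1 at 0.5 h is the library with the highest mitochondrial share, whose part in the result was not tested. Protein-coding genes under 5 kb also had a pair 1 median of 0.10, against -0.02, 0.01 and -0.02 in pairs 2, 3 and 4. From 5 to 20 kb pair 1 was at 0.01 and did not stand apart. Ribosomal protein genes had a median length of 5.33 kb, and the part of length was not tested. Without replicate 1 the list gave 6 rises and a median of 0.07, without replicates 2, 3 and 4 it gave 2, 0 and 2 rises, and without the block 1. Translation factors gave 5 rises (EIF3K, EEF1A1, EIF2S2, EIF1 and EIF2S3) of 36, which became 5, 1, 0 and 0 without replicates 1, 2, 3 and 4, 0 without the block and 1 in the blocked fit of the 8 libraries. NPM1, the nucleolar chaperone of ribosome assembly, rose by 0.18 ± 0.03 and was called whichever replicate was left out. The 78 mitochondrial ribosomal proteins had a median of 0.03 and 1 call, at MRPS25.

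Among early-response genes, 4 of 43 immediate-early genes were called higher (PLK2, HES1, ZFP36L1 and MYC), beside 1.12% of all genes. The count became 2 without replicate 2, 3 or 4 and 1 without the block. PLK2, a polo-like kinase induced by stress and growth signals, was at 232, 217, 228 and 217 CPM in DMSO and at 261, 267, 267 and 259 CPM at 0.5 h, a log2 fold change of 0.24 ± 0.03 (SE) at an edgeR FDR of 0.000237. PLK2 stood at 0.40 at 24 h, while MYC, at 0.16 ± 0.04 at 0.5 h, stood between -0.05 and 0.03 from 1 to 24 h.

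Chaperone and cholesterol genes included falls. Of 32 heat shock chaperones, HSPH1, CHORDC1, FKBP4 and DNAJB6 were called lower and HSPB8 higher, beside 1.36% and 1.12% of all genes. HSPH1, an Hsp110 family chaperone, was at 40.3, 38.5, 43.3 and 45.1 CPM in DMSO and at 36.2, 32.5, 32.6 and 34.1 CPM at 0.5 h, with no overlap and a log2 fold change of -0.32 ± 0.06 (SE). These calls numbered 0 without replicate 3. Of 32 cholesterol synthesis and uptake genes, SQLE and DHCR7, enzymes of the pathway, and SREBF1, a factor that drives lipid synthesis genes, were called lower, beside 1.36% of all genes. DHCR7 went from 56.7, 60.2, 56.7 and 58.3 CPM to 45.8, 56.5, 49.5 and 49.1 CPM, a log2 fold change of -0.21 ± 0.05, and its values at 1, 2, 4 and 24 h were 0.12, 0.34, 0.35 and 0.00. SQLE had -0.23 ± 0.05 at 0.5 h and 0.01, 0.28, 0.35 and -0.05 at the later times. For both genes the sign at 2 and 4 h was thus the opposite of that at 0.5 h, and both calls at 0.5 h were lost without replicate 3 or without replicate 4.

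**Figure D5:**
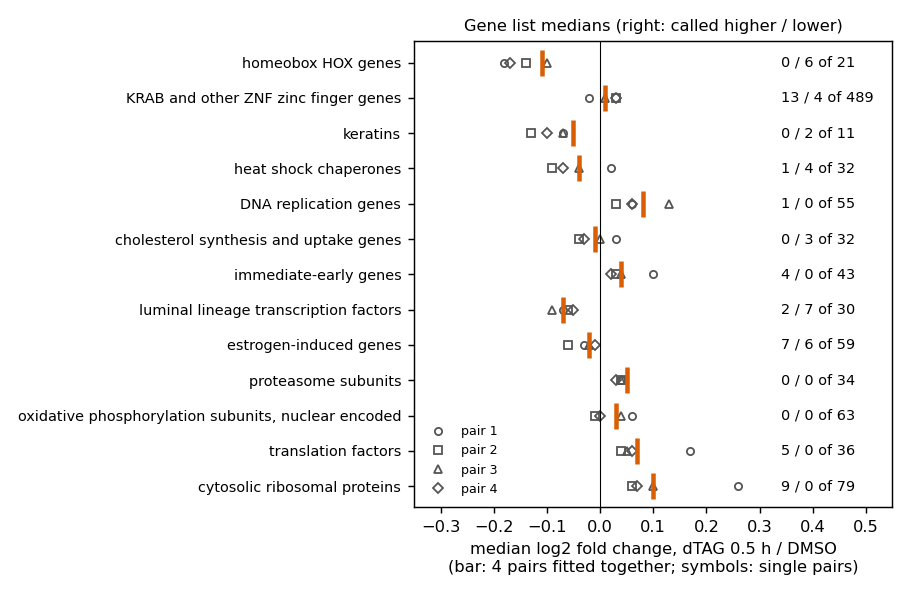
For 13 gene lists the bar gives the median log2 fold change at 0.5 h from the fit of all 4 pairs and the symbols give the median of each single pair, on 1 axis. The numbers at the right are the members called higher, called lower and tested. Ribosomal protein and translation factor genes lie right of 0 with pair 1 the furthest, and HOX and luminal transcription factor genes lie left of 0 in all 4 pairs.

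The remaining lists are read against the 2.48% of all genes called. DNA replication genes had 47 of 55 positive values and a median of 0.08, but only MCM3 was called. Of 55 mitosis genes, KIF14 and CENPI were called lower, and neither was called without the block or with any 1 replicate left out. The 46 growth factor receptors and feedback regulators, 26 YAP and TEAD genes, 42 WNT pathway genes, 34 interferon-stimulated genes, 18 NF-kappaB targets, 34 proteasome subunits, 63 nuclear-encoded oxidative phosphorylation genes and 13 genes on mitochondrial DNA gave 0 calls in edgeR's test. Of these 275 genes, 36 had an unadjusted p under 0.05, and DESeq2 with the block called 5 (DDR1, ERBB3, RNF43, IRF9 and BCL3). Among GATA factors and subunits of the NuRD and CoREST corepressors, GATA4 and TRPS1 were called higher and GATA3 and RCOR3 lower of 36, which became 4, 1, 1 and 1 calls without replicates 1, 2, 3 and 4. GATA4 was at 18.8, 20.6, 21.2 and 17.3 CPM in DMSO and at 24.5, 24.5, 25.5 and 21.2 CPM at 0.5 h, so its groups were barely separated (0.29 ± 0.08), and the call was lost without replicate 2, 3 or 4.

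The 2 called protein-coding genes with the largest fitted changes each rested on 1 library. GAB3 was at 5.41, 2.33, 0.787 and 2.12 CPM in DMSO and at 9.98, 234, 1.33 and 1.24 CPM at 0.5 h, with a fitted log2 fold change of 3.50 ± 0.99 (SE). CALY was at 26 CPM in DMSO replicate 1 and at or below 2.06 CPM in all 7 other libraries, with a fitted value of -2.50 ± 0.66. The groups of both genes overlapped, and GAB3 was not called without replicate 2, nor CALY without replicate 1.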

How the data were processed

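PRO-seq counts of 8 libraries were compared, 4 of dTAG at 0.5 h and 4 of DMSO, grouped and numbered by their titles. Per the study's methods and processing notes, adapters were removed with cutadapt 1.8.1, duplicates were collapsed by molecular identifier, reads on ribosomal DNA were dropped, the rest were aligned with Bowtie2 2.4.4 (SAMtools 1.9) to hg38 and counted in genes with bedtools. The values the authors deposited are raw read counts per gene, for 60605 Ensembl identifiers in 23 libraries. The gene annotation is not given in the sources used here. GENCODE 44 matched 60463 identifiers and supplied symbols, types and spans. Strand use in counting is not stated: a gene inside another had more counts than its host in 0.622% of 2571 same-strand pairs and in 15.5% of 2185 opposite-strand pairs. Same-strand overlaps share reads.

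All 23 libraries were fitted in R 4.3.3 with edgeR 4.0.16 (glmQLFit, glmQLFTest), with group and replicate number as a block, filterByExpr (minimum count 10, minimum total 15), TMM scaling and Benjamini-Hochberg adjustment over 26057 genes, and an FDR under 0.1 called. The 15 later dTAG libraries enter for the estimate of the spread. The study's methods name DESeq2 and no covariate. Same-numbered libraries share a harvest, and their deviations from the group means correlated across genes at 0.566, 0.076, 0.507 and 0.255. Between libraries of different numbers the values ran from -0.576 to 0.48, and DMSO replicates 2 and 4 correlated slightly better with 0.5 h replicates 1 (0.153) and 3 (0.258) than with their own. CPM are scaled by TMM. SE is the standard error of the log2 fold change.

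Named genes were those with at least 100 counts on average and 1 direction in all 4 pairs: the 12 largest rises and falls, the 5 smallest p-values, the 4 largest changes of long noncoding RNA genes and the 3 longest and shortest protein-coding genes in each direction, plus up to 4 members of each of the 57 gene lists with the smallest p. Other genes printed, among them those of the chromosome 19 and HOXC stretches, GAB3, CALY, MGP and further list members, were chosen after their values were seen. The part of the series, the lists and the tests were chosen with earlier results of these data known. Promoters are the RefSeq windows (250 bases before, 50 after the start), 1 per gene, the nearest to the annotated start. Scripts were tested on simulated data. Alternatives were DESeq2 1.42.0, other scalings, filters and library sets, no block, an FDR of 0.05, genes overlapping no other and leaving out each replicate.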

Additional observations from a re-analysis of the deposited data

Results flagged for a closer look

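Single libraries stood apart from the other 3 of their group in 12 of 226 groups of 4 checked (5.31%), by a gap past Dixon's 95% critical value, and chance gives about 1 in 20. Replicate 1 accounted for 9 of the 12. In the DMSO group it was highest for MGP (128 CPM against 97.7 to 98.3), HSPB8 (130 against 112 to 113), DAP3P1 (13.5 against 10.8 to 11.1) and CALY (26 against 0.215 to 2.06). In the 0.5 h group it was highest for MGP (168 CPM against 113 to 116), SPDEF (76.1 against 70.2 to 70.3) and CALY (1.4 against 0.438 to 0.577), and lowest for GAL3ST2 (6.08 against 10.1 to 10.7) and ZNF649 (47.4 against 50.6 to 51.1). The other 3 were all at 0.5 h: GAB3 in replicate 2 (234 CPM against 1.24 to 9.98), ZNF616 in replicate 2 (48.6 against 50.2 to 50.5) and KRT15 in replicate 4 (89.8 against 81.3 to 81.9).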

How the results depend on the processing

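The 645 calls (291 higher, 354 lower) depended on several choices, and in every alternative each of the 645 genes that was tested kept the sign of its change, a direction that the choice of these genes partly fixes. Without the replicate block the fit of all libraries called 124 genes (61 higher, 63 lower). A fit of the 8 libraries alone called 194 with the block (100 and 94), of which 189 were shared, and 1 without it (1 and 0), with 1839 genes at an unadjusted p under 0.05. Total counts in place of TMM gave 392 (147 and 245). An FDR under 0.05 gave 372 (172 and 200). Requiring a mean of 100 counts gave 999 (464 and 535) over 14269 genes, with 606 of the 607 earlier calls among them retained. Restricting to the 7010 genes that overlap no other gave 154 (73 and 81). The cause was not tested. Median-of-ratios scaling (648), no filter (722) and DESeq2 with the block (762) stayed within 1.5 times. Leaving out 1 replicate gave between 109 and 727 calls, with 64 to 322 higher and 45 to 405 lower. TRPS1 had a log2 fold change of 0.13 and missed the threshold without the block, in the fit of the 8 libraries without it, with DESeq2 and at an FDR of 0.05, and it stood between 0.11 and 0.14 without 1 replicate. Of the 43 genes named by size, p, class or length, 20 were still called without the block and 22 to 37 without 1 replicate. Of long noncoding RNA genes 1.12% were called higher, and 0.58% of those overlapping no other. Of protein-coding genes of 50 to 200 kb 3.61% were called lower, against 4.77% of those overlapping no other and 0.133% and 5.72% in the lowest and highest of 3 equal groups by CPM. Above 200 kb 2.27% were called higher, against 0 of those overlapping no other and 0, 1.37% and 4.18% in those 3 groups from lowest to highest. Depth limits genes of few counts: calls had a median of 632 counts, all tested genes 134.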
